A study of Homo sapiens with 2 samples.

Results

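RNA-seq in Ramos and Ramos640 cells was examined here for 30 genes of cholesterol synthesis, uptake and trafficking, which were taken from the 37122 rows of the count table by their symbols. The list holds 18 enzymes of sterol synthesis, 5 genes of the SREBP control system, 4 genes that move or store cholesterol, and 3 genes of the LXR receptors and of the control of uptake. Ramos is a human Burkitt's lymphoma (BL) cell line of B-cell origin. Ramos640 was derived from it by treatment with increasing rituximab, an antibody against CD20, in the presence of normal human serum (NHS) as a source of complement, and is resistant to complement-dependent cytotoxicity. Treatment with rituximab and 20% NHS was repeated every 21 days to keep the resistance. The rituximab concentration is 640 in both sources, but the sample labels give it in mg/mL and the study in μg/mL. For each line, RNA of 3 passages was combined into 1 library. No difference below therefore has a replicate check, and no p-value is given. The effect of long culture, of selection and of the last rituximab treatment cannot be told apart with these samples.

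Cells make cholesterol from acetyl-CoA through mevalonate, the isoprenoid diphosphates, squalene and lanosterol. The transcription factors SREBP-1 and SREBP-2 switch these genes on: SCAP carries the SREBP precursors from the endoplasmic reticulum to the Golgi for cleavage when sterols are scarce, and the INSIG proteins hold SCAP back when sterols are plentiful. The LXR receptors respond to oxysterols and act in the other direction. Cholesterol is a main component of the lipid rafts into which CD20 moves when rituximab binds.

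The 30 genes differed between the libraries in both directions, and their median lay close to that of all genes. Differences are given as log2 fold changes, Ramos640 relative to Ramos. The median was 0.015 over the 30 genes, against -0.015 over the 18778 genes tested, which are those with 10 or more reads when both libraries are added. More than 1.5-fold lower in Ramos640 were GGPS1, IDI1, TM7SF2 and HMGCS1, which is 4 of 30 genes (13.3%), against 17.3% of all genes tested. Without the trend over transcript GC content described further on, GGPS1 (-0.56), IDI1 (-0.36) and HMGCS1 (-0.34) came within 1.5-fold and TM7SF2 (-0.81) did not. More than 1.5-fold higher were NR1H3, SCAP and PMVK, which is 3 of 30 genes (10.0%), against 14.6% of all genes tested. All 3 came within 1.5-fold when total counts set the scale (0.56, 0.54 and 0.53) and also without the GC trend (0.47, 0.43 and 0.42). Fold here means a ratio of normalised counts, which are reads divided by median-of-ratios size factors, and 1 was added to each before the log2 was taken. With exact 95% intervals for counting error, 13 genes (43.3%) had an interval below 0 and 10 genes (33.3%) had one above 0. The shares over all genes tested were 31.6% and 29.6%, with many of them at lower counts and so with wider intervals. The intervals of the other 7 genes included 0. The shares past 1.5-fold were not matched for counts either, and genes at lower counts pass that limit more easily through counting error.

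The libraries held 38030090 reads for Ramos and 30871826 for Ramos640, so that 1 read in Ramos corresponded to 0.768 reads in Ramos640 at an equal level. All 30 genes passed the minimum of 10 reads, and the lowest, NR1H3, had 95 reads in the 2 libraries together. All 8 B cell markers examined were present, with 362 to 82890 reads. Of 6 T cell markers, CD3D, CD2, CD5 and CD8A had no reads, CD3G had 5 in Ramos and 1 in Ramos640, and CD3E had 1 read in Ramos and 31 in Ramos640. None of 6 monocyte markers exceeded 13 reads, and none of 4 hepatocyte markers exceeded 2. Among 6 epithelial and fibroblast markers, COL1A1 had 651 and 192 reads and COL1A2 had 466 and 162, while the other 4 had 0 to 19 reads. The part of such cells in the results was not tested. In bulk RNA, a lower level in each cell and fewer cells with that level cannot be told apart.

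**Figure D1:**
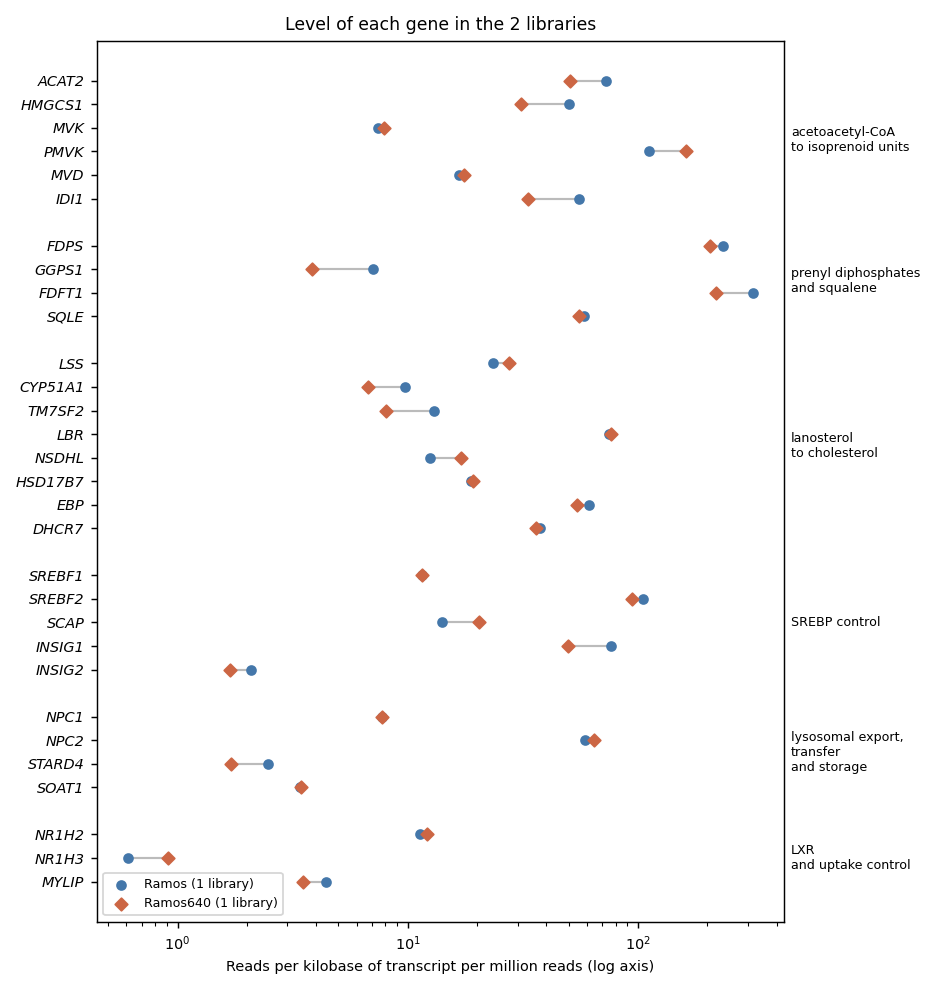
Level of each of the 30 genes in the Ramos library (circles) and the Ramos640 library (diamonds), in RPKM on a log axis, with the genes grouped by role and a line joining the 2 values of a gene. FDFT1 and FDPS lie at 206 or more in both libraries, NR1H3 lies below 1 in both, and INSIG1 moves from 76.7 to 49.6.

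The levels spanned more than 2 orders of magnitude and kept much of their order. Levels of different genes are compared per length, as RPKM, which scales the reads to transcript length and to the total of the library. FDFT1, which encodes squalene synthase, was the most abundant of the 30 genes with 315 RPKM in Ramos and 218 in Ramos640. FDPS, the farnesyl diphosphate synthase, came next with 233 and 206 RPKM, and PMVK and SREBF2 were the third and the fourth in both libraries. INSIG1 moved from the 5th place in Ramos (76.7 RPKM) to the 10th in Ramos640 (49.6 RPKM). The lowest levels were those of NR1H3 (0.611 and 0.909 RPKM), INSIG2 (2.09 and 1.68 RPKM), STARD4 (2.47 and 1.70 RPKM) and SOAT1 (3.39 and 3.43 RPKM). The median over the 30 genes was 17.7 RPKM in Ramos and 19.8 RPKM in Ramos640, against 5.54 and 5.03 RPKM over all genes tested that had a transcript length.

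The 18 synthesis enzymes together held 0.252% of the Ramos reads (95% Clopper-Pearson interval from 0.251 to 0.254) and 0.213% of the Ramos640 reads (0.211 to 0.215). Their summed reads were lower in Ramos640 by a log2 fold change of -0.16 (interval -0.18 to -0.15). Of the 18 enzymes, 9 had an interval below 0, 6 had one above 0 and 3 included 0. Over all genes tested, 31.6% had an interval below 0 and 29.6% had one above 0. A sum of reads is led by the most abundant genes, and the median over the 18 enzymes was -0.040.

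In the first steps, from acetoacetyl-CoA to the isoprenoid units, the genes were split as counted, with 3 lower and 3 higher in Ramos640. Once the GC trend described further on was removed, 5 of the 6 genes lay below 0 and only PMVK lay above. MVK (-0.057) and MVD (-0.0027) then lay just below 0, and no direction is given for these 2 genes. HMGCS1, the synthase that makes HMG-CoA, lies on chromosome 5 (GRCh37, 43287572 to 43313614). Its level was 8970.4 normalised counts in Ramos and 5835 in Ramos640 (10237 and 5113 reads), a log2 fold change of -0.62 (interval -0.67 to -0.57). IDI1, the isomerase that makes dimethylallyl diphosphate, lies on chromosome 10 from 1085092 to 1095059. Its normalised counts were 5060 and 3200 (5774 and 2804 reads), a log2 fold change of -0.66 (interval -0.73 to -0.60). Both came within 1.5-fold without the GC trend. ACAT2, the thiolase that joins acetyl-CoA units, was lower by less than 1.5-fold, with 3695 and 2708 normalised counts (-0.45, interval -0.52 to -0.38). The kinase and decarboxylase genes between HMG-CoA and the isoprenoids lay above 0 as counted, and of them only PMVK did so without the GC trend. PMVK, phosphomevalonate kinase, lies on chromosome 1 from 154897216 to 154909195 and had 3746 and 5729 normalised counts (4275 and 5020 reads), a log2 fold change of 0.61 (interval 0.55 to 0.67), and came within 1.5-fold with total counts and without the GC trend. MVK, mevalonate kinase, had 700.1 and 784 normalised counts (0.16, interval 0.014 to 0.31). MVD, the decarboxylase, had 999.8 and 1109 (0.15, interval 0.025 to 0.27). The intervals of MVK and MVD both began near 0. ACAT2 overlaps TCP1 on the opposite strand, which had more reads than ACAT2 (18050 and 12680), MVK overlaps MMAB (1354 and 879 reads) and IDI1 overlaps IDI2-AS1 (80 and 52 reads). How the counting treated strand is not stated, so reads of such pairs could have been shared.

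Around the branch point of the prenyl diphosphates, GGPS1 showed the largest difference of the 30 genes. GGPS1 makes geranylgeranyl diphosphate, a lipid that is attached to Rab proteins, and lies on chromosome 1 from 235490665 to 235507847. It had 681.7 normalised counts in Ramos and 390.3 in Ramos640 (778 and 342 reads), a log2 fold change of -0.80 (interval -0.99 to -0.62), which is 1.74-fold lower, and -0.56 without the GC trend, within 1.5-fold. ARID4B, which overlaps it on the opposite strand, had 1065 and 555 reads (-0.56). FDFT1 commits farnesyl diphosphate to sterols, and its normalised counts were 21369 and 15605 (24386 and 13674 reads). Its log2 fold change was -0.45 (interval -0.48 to -0.42). FDPS, which feeds both branches, differed less, with 11021 and 10271 normalised counts (-0.10, interval -0.14 to -0.063). FDPS has 8 pseudogenes with at least 10 reads, of which FDPSP1 had most, with 590 and 331, so its count is uncertain. SQLE, squalene epoxidase, had 5750.1 and 5779 normalised counts. Its value of 0.0072 on the log2 scale had an interval from -0.046 to 0.060 and turned to -0.073 when total counts set the scale, so no direction is given.

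Among the genes that form lanosterol or turn it into cholesterol, 3 of 8 had intervals below 0, 3 had intervals above 0 and 2 included 0. The shares over all genes tested were 31.6% below 0 and 29.6% above 0. TM7SF2 and LBR encode the 2 enzymes that can reduce the C14 double bond of sterols, and they differed in opposite directions. TM7SF2, on chromosome 11 from 64879317 to 64883856, had 687 and 445 normalised counts (784 and 390 reads), a log2 fold change of -0.63 (interval -0.81 to -0.45). LBR, which is also a receptor of the nuclear lamina, had 9313 and 10088 normalised counts (0.12, interval 0.074 to 0.16). VPS51, which overlaps TM7SF2 on the same strand, was higher in Ramos640 (3001 and 3374 reads, 0.55). CYP51A1, the lanosterol demethylase, had 1018 and 747.5 normalised counts (-0.45, interval -0.59 to -0.31). AKAP9, on the opposite strand to it, had more reads (1825 and 1638, 0.22). NSDHL, which acts in the removal of the C4 methyl groups, had 759.7 and 1105 normalised counts (0.54, interval 0.41 to 0.67), a difference of 1.45-fold. LSS, which closes the sterol rings, had 3827 and 4736 normalised counts (0.31, interval 0.25 to 0.37). EBP, the sterol isomerase, had 2291 and 2156 normalised counts, and the upper limit of its interval (-0.17 to -0.0016) lay next to 0. HSD17B7 (0.11, interval -0.015 to 0.24) and DHCR7 (0.024, interval -0.047 to 0.094) did not differ detectably at this depth. DHCR7 was at -0.057 with total counts. HSD17B7P2, a pseudogene of HSD17B7, had 181 and 151 reads.

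**Figure D2:**
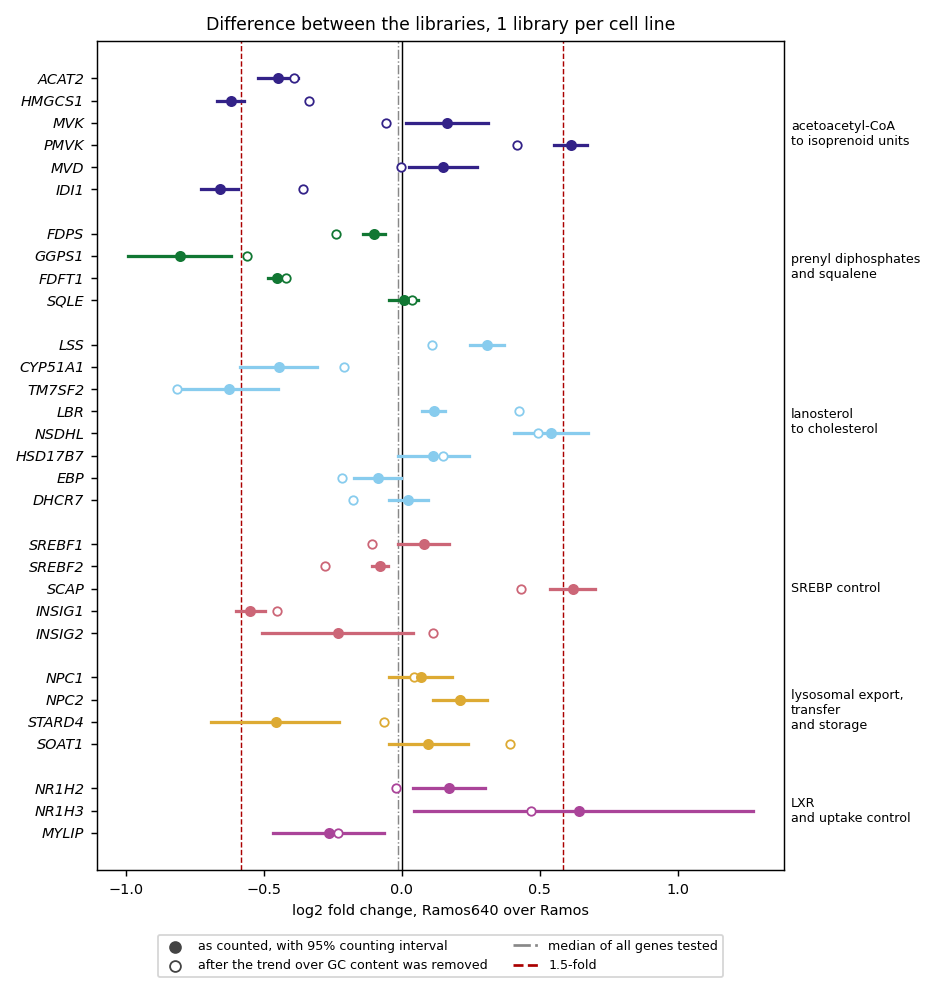
Ramos640 relative to Ramos, as a log2 fold change, for each of the 30 genes (filled points) with its 95% counting interval (bars), and its value without the GC trend (open points), with the genes grouped by role. Dashed lines mark 1.5-fold and the dash-dotted line the median of all genes tested (-0.015). GGPS1, IDI1, TM7SF2 and HMGCS1 lie beyond the left dashed line, NR1H3, SCAP and PMVK beyond the right one, and only TM7SF2 has an open point beyond either.

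In the control system, SCAP and INSIG1 differed in opposite directions while the transcripts of the SREBPs themselves differed little as counted. SCAP, the escort of the SREBP precursors, lies on chromosome 3 from 47455171 to 47518616. It had 1987 and 3055 normalised counts (2268 and 2677 reads), a log2 fold change of 0.62 (interval 0.54 to 0.70), and likewise came within 1.5-fold with total counts and without the GC trend. INSIG1, which retains SCAP and is itself an SREBP target, lies on chromosome 7 from 155089486 to 155101945. Its normalised counts were 7435 and 5079 (8485 and 4451 reads), a log2 fold change of -0.55 (interval -0.60 to -0.50). This is 1.46-fold lower, just inside the 1.5-fold limit, and -0.63 with total counts, just outside it. INSIG2, the less abundant INSIG gene, had 248 and 211.1 normalised counts, with an interval from -0.51 to 0.040. SREBF2, which encodes SREBP-2, had 18354 and 17380.4 normalised counts (-0.079, interval -0.11 to -0.048), and lay at -0.28 without the GC trend. SREBF1, which encodes SREBP-1, had 1877 and 1983 normalised counts (0.080, interval -0.013 to 0.17). SREBF1 lay at -0.00068 with total counts, so no direction is given for it.

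Promoter sequences are shown for HMGCS1 and INSIG1, which were lower in Ramos640 as counted, for SREBF2, which differed little as counted, and for PMVK and SCAP, which were higher as counted. The choice was not independent of these differences, so the sequences are examples only. They come from RefSeq (GRCh38.p14, another build than that of the counts), in windows from 250 bases before to 50 bases after each transcription start. Of the 30 genes, 27 had at least 1 window and together they had 38. Only the 250 bases before the start are printed, from the window with most matches, 5′ to 3′ on the strand of the gene. Capitals mark matches on either strand of the sterol regulatory element TCACNCCAC, the CCAAT box CCAAT (bound by NF-Y), the GC box GGGCGG (bound by Sp1) and the E-box CACGTG. A match on the other strand appears as its reverse complement, such as ATTGG for CCAAT. GC boxes can overlap each other.
HMGCS1, chr5:43313413-43313662, minus strand: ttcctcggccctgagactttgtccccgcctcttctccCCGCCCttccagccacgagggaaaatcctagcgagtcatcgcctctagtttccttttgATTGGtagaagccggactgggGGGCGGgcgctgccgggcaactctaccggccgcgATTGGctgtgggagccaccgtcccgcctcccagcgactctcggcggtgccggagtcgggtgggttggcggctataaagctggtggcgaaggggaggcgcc
INSIG1, chr7:155297628-155297877, plus strand: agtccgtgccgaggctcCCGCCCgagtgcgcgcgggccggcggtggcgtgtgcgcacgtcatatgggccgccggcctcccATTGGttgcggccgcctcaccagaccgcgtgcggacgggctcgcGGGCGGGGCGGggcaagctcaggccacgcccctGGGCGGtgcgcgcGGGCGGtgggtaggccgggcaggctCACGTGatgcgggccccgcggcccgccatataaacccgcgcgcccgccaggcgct
SREBF2, chr22:41832855-41833104, plus strand: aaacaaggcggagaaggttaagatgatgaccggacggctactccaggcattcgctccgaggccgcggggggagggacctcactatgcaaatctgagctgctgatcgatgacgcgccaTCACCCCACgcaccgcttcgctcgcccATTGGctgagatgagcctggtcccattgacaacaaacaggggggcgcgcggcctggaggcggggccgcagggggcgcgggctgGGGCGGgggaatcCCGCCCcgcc
PMVK, chr1:154936720-154936969, minus strand: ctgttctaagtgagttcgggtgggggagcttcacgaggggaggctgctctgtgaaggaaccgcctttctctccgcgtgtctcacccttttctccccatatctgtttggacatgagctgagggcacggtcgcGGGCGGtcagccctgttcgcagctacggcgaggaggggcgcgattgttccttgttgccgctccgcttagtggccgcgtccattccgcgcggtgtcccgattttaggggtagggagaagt
SCAP, chr3:47475942-47476191, minus strand: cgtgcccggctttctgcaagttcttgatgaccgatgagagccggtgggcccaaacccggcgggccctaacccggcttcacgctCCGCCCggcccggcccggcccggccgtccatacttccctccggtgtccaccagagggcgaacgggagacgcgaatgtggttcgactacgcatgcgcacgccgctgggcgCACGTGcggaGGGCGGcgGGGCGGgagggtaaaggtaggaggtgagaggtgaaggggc

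The sterol regulatory element was found in 1 of the 38 windows, that of SREBF2, as TCACCCCAC with its first base at position -133 from the start, and in 1.13% of all 35116 windows in the table. SREBP sites are often looser than this motif, and a window without it says only that these letters are not there. CCAAT was in 20 of the 38 windows (52.6%), against 34.6% of all windows. GGGCGG was in 32 of 38 (84.2%), against 45.0% of all windows and 56.3% of the 22199 windows of protein-coding genes, and CACGTG was in 3 of 38 (7.89%), against 7.26%. By gene, CCAAT was in 19 of the 27 members with a window (70.4%), against 39.7% of all genes in the table. It was in 10 of 12 members with a log2 fold change below 0 and in 9 of 15 above 0. These signs are as counted, and of the 30 genes 4 changed sign with total counts and 6 without the GC trend. Each of the 4 genes that were more than 1.5-fold lower in Ramos640 had CCAAT in at least 1 window, and 1 of the 3 genes that were more than 1.5-fold higher had it. In the sequences above, HMGCS1, INSIG1 and SREBF2 have 2, 1 and 1 CCAAT matches, and PMVK and SCAP have none. NSDHL, which was also higher in Ramos640, has 5 in its window, and so has MVK (0.16 as counted). Genes have unequal numbers of windows, and a match is a description of the letters and not a bound site.

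Of the genes of cholesterol transfer and storage, none differed by 1.5-fold. NPC1, which lies in the lysosomal membrane and exports cholesterol, had 1231 and 1292 normalised counts (0.069, interval -0.045 to 0.18) and lay at -0.011 with total counts. NPC2, its soluble partner, had 1609 and 1861 normalised counts (0.21, interval 0.11 to 0.31). SOAT1, which esterifies cholesterol for storage, had 773.8 and 827.4 (0.097, interval -0.047 to 0.24), and 0.39 without the GC trend. STARD4, a carrier of cholesterol in the cytosol and an SREBP target, had 381.2 and 277.3 normalised counts (435 and 243 reads) and a log2 fold change of -0.46 (interval -0.69 to -0.23), which came to -0.066 without the GC trend. STARD4-AS1, on the opposite strand, had 216 and 75 reads (-1.14), and NPC2 overlaps ISCA2 (1792 and 1006 reads, -0.45).

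Of the LXR receptors, NR1H2 (LXRβ) made up most of the reads. It had 912.2 and 1027 normalised counts (1041 and 900 reads), a log2 fold change of 0.17 (interval 0.041 to 0.30) that came to -0.020 without the GC trend. NAPSB, which overlaps it on the opposite strand, had 2230 and 1248 reads. NR1H3 (LXRα) had only 43 reads in Ramos and 52 in Ramos640, and its log2 fold change was 0.64 (interval 0.044 to 1.27). It passes the 1.5-fold limit as counted but lay at 0.54 with a pseudocount of 10 and at 0.56 with total counts. ACP2, on the opposite strand to it, had 176 and 192 reads (0.50). MYLIP, an LXR target that marks lipoprotein receptors for degradation, had 453.9 and 377.7 normalised counts (518 and 331 reads), a log2 fold change of -0.26 (interval -0.47 to -0.063).

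Ratios between genes within a library do not depend on how the libraries were scaled. The pairs were chosen after the values above were seen, so their changes are a description. The ratio of INSIG1 to SCAP, per length, was 5.47 in Ramos and 2.43 in Ramos640, a log2 change of -1.17 (interval from counting error -1.27 to -1.07). HMGCS1 stood at 0.448 times the level of PMVK in Ramos and 0.191 times in Ramos640 (log2 change -1.23), and IDI1 at 0.494 and 0.204 times (-1.27). In the demethylation steps, the ratio of CYP51A1 to NSDHL went from 0.779 to 0.393 (-0.99). The ratio of LBR to TM7SF2 went the other way, from 5.71 to 9.54 (0.74, interval 0.56 to 0.92). SREBF2 stood at 9.15 and 8.20 times SREBF1 (-0.16), INSIG1 at 36.7 and 29.5 times INSIG2 (-0.32), and NPC1 at 0.132 and 0.120 times NPC2 (-0.14, interval -0.29 to 0.0075). NR1H2 stood at 18.6 and 13.3 times NR1H3 (-0.48, interval -1.08 to 0.11), and INSIG1 at 0.730 and 0.526 times SREBF2 (-0.47). Of the prenyl diphosphate pairs, GGPS1 to FDPS went from 0.0303 to 0.0186 (-0.70) and FDFT1 to FDPS from 1.35 to 1.06 (-0.35).

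**Figure D3:**
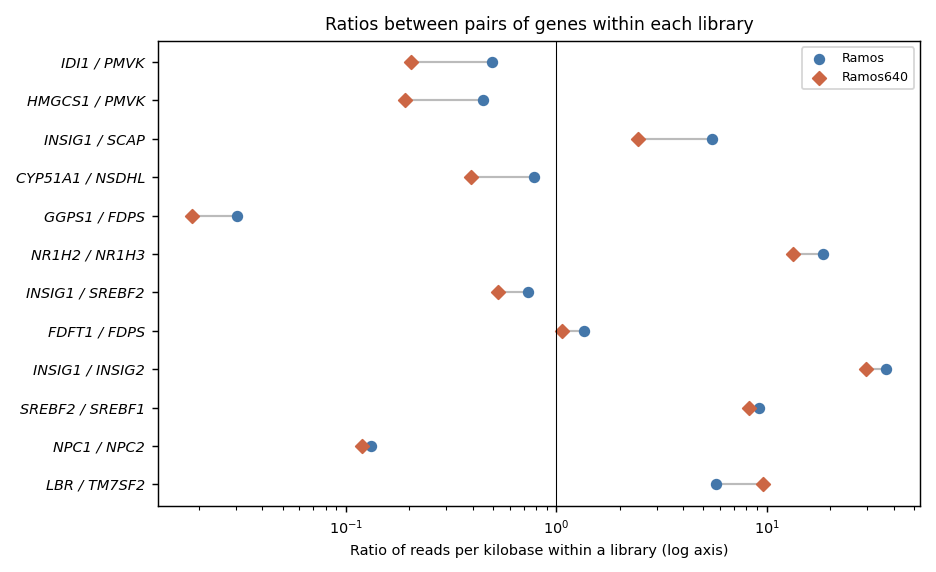
Ratio of reads per kilobase between 2 genes within the Ramos library (circles) and within the Ramos640 library (diamonds) for 12 pairs, on a log axis, in the order of the change. IDI1 to PMVK, HMGCS1 to PMVK and INSIG1 to SCAP moved most to the left in Ramos640, and LBR to TM7SF2 is the pair that moved to the right.

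The differences were related to the GC content of the transcripts, as they were over the whole table. GC content ran from 34.4% (STARD4) to 65.5% (MVD) over the 30 genes. Spearman's correlation between GC content and the log2 fold change was 0.57 and Pearson's was 0.54 across the 30 genes, which share the same 2 libraries and are not independent replicates. Over the table, Spearman's correlation was 0.43 (10245 protein-coding genes of 100 reads or more). The 17 genes under 50% GC had a median log2 fold change of -0.26, against -0.19 over all protein-coding genes under 50% GC. The 13 genes of 50% GC or more had a median of 0.15, the same to 2 digits as the 0.15 over all protein-coding genes of that range. With the GC trend subtracted, the median over the 30 genes was -0.061 and that of the 18 enzymes was -0.19, with 12 of the 18 below 0. Over all genes tested that had a GC content, 7716 of 15802 were below 0. None of the 30 genes was then more than 1.5-fold higher, against 12.5% of the 15802 genes tested that had a GC content, and 1 (3.33%) was more than 1.5-fold lower, against 15.0%. That gene was TM7SF2, at -0.81, whose GC content of 62.4% lies where other genes were mostly higher in Ramos640. The shares over all genes include many genes at lower counts, which pass 1.5-fold more easily through counting error. GGPS1 (-0.56), INSIG1 (-0.45), FDFT1 (-0.42), ACAT2 (-0.39), IDI1 (-0.36) and HMGCS1 (-0.34) stayed below 0, and NSDHL (0.49), NR1H3 (0.47), SCAP (0.43), LBR (0.42) and PMVK (0.42) stayed above. In the pairs, the log2 change became -0.88 for INSIG1 to SCAP, -0.75 for HMGCS1 to PMVK, -0.78 for IDI1 to PMVK and -0.70 for CYP51A1 to NSDHL. It shrank to -0.32 for GGPS1 to FDPS, -0.18 for FDFT1 to FDPS and -0.17 for INSIG1 to SREBF2. It grew to 1.24 for LBR to TM7SF2 and to -0.57 for INSIG1 to INSIG2. The other 3 pairs came to -0.17 for SREBF2 to SREBF1, -0.49 for NR1H2 to NR1H3 and -0.17 for NPC1 to NPC2. The part that GC content has in the differences was not tested further.

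**Figure D4:**
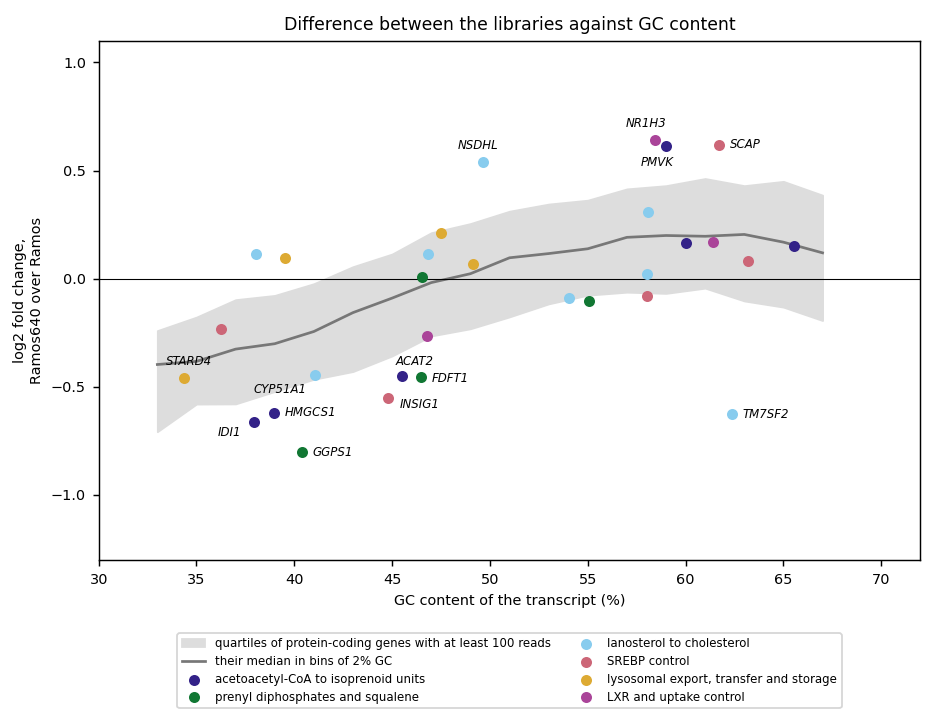
Ramos640 relative to Ramos, as a log2 fold change, against the GC content of the transcript in percent, for the 30 genes (points coloured by role). The grey line is the median and the grey band the quartiles of protein-coding genes of 100 reads or more, in bins of 2% GC. Among the genes outside the band, HMGCS1, IDI1, GGPS1, INSIG1, ACAT2 and FDFT1 lie below it and TM7SF2 lies far below it at 62.4%. NSDHL, NR1H3, PMVK and SCAP lie above it, as do LBR and SOAT1 at low GC content.

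The genes around the pathway were taken from lists on isoprenoid use, SREBP processing, sterol movement and oxysterols. Over 91 such genes, including the fatty acid and raft lists described separately, 83 had at least 10 reads, with a median log2 fold change of 0.029. More than 1.5-fold higher in Ramos640 were 7 and more than 1.5-fold lower were 12 of the 83, beside the 14.6% and 17.3% over all genes tested. Of 10 other genes of sterol synthesis, 2 were more than 1.5-fold lower and none was higher, with a median of -0.12, and both lay within 1.5-fold after the GC trend was removed. None of 13 genes that use isoprenoids passed 1.5-fold in either direction, and their median was 0.17. ICMT, which methylates prenylated proteins and had most reads of them in both libraries together, had 3140 and 2168 (-0.15). Of 14 genes of SREBP processing and of the degradation of pathway proteins, none passed 1.5-fold. VCP, with most reads among these, had 13312 and 10614 reads (0.054).

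Among 18 genes of sterol trafficking, storage and efflux, 3 were more than 1.5-fold higher and 3 more than 1.5-fold lower. The shares over all genes tested were 14.6% and 17.3%. The LXR targets ABCG1 and ABCA1, both exporters of cholesterol, differed in opposite directions, with 521 and 718 reads for ABCG1 (0.84) and 434 and 196 for ABCA1 (-0.76), and both intervals lay on 1 side of 0. STARD5 (211 and 263 reads, 0.70) and the lysosomal receptor SCARB2 (89 and 116 reads, 0.76) were higher. GRAMD1C (26 and 5 reads, -1.83) and SOAT2 (13 and 2 reads, interval from -5.51 to -0.18) were lower on few reads. RAB7A, with most reads in this list, had 5884 and 5404 reads (0.26). Of 8 oxysterol and LXR partner genes only 4 had at least 10 reads, since CH25H, CYP27A1 and CYP7B1 had none in either library and CYP46A1 had 2 and 1. The median of the 4 was 0.38, with 2 more than 1.5-fold higher and 0 lower, beside the same shares over all genes tested. The higher genes include 1 with only 9 and 12 reads, whose interval included 0. Without the GC trend 0 of the 4 passed 1.5-fold.

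**Figure D5:**
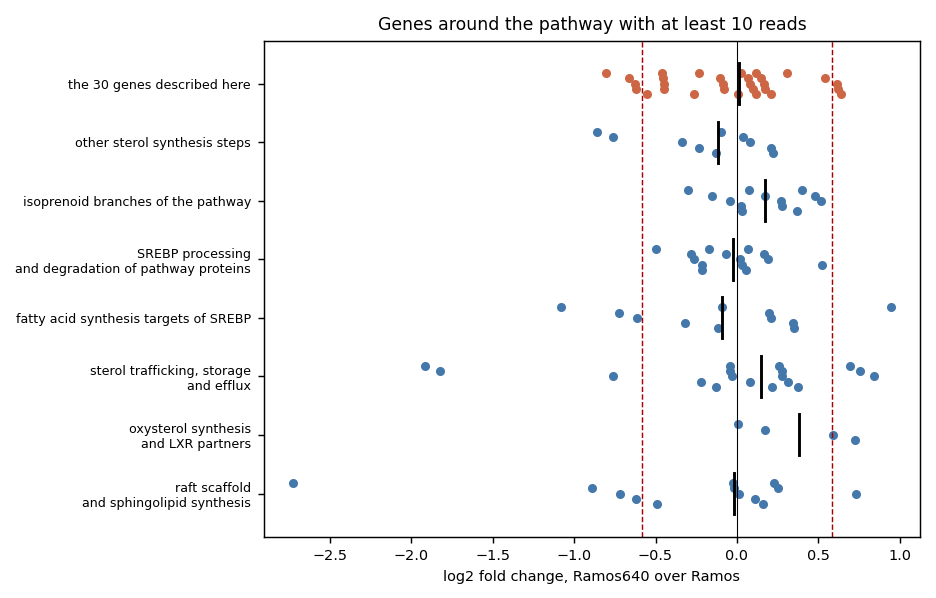
Ramos640 relative to Ramos, as a log2 fold change, for the 30 genes (top row) and for the genes of 7 lists around the pathway with at least 10 reads. Each point is 1 gene, the black bar is the median of a row and the dashed lines mark 1.5-fold. The 30 genes lie between -0.80 and 0.64, and the 3 points farthest to the left belong to SGMS2, SOAT2 and GRAMD1C, with at most 26 reads in a library.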

How the data were processed

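RNA-seq of Ramos and Ramos640 cells was compared. Either line had 1 library, for which RNA of 3 passages had been combined. Per the study, adaptor sequences were removed from the Ion Proton reads, which were aligned to GRCh37 with MapSplice (v2.1.6). The authors deposited raw read counts per gene without normalization. The counting program, its annotation, its use of strand and its handling of reads that map to several places are not given in the sources used here. Of the 37122 rows, 28 carry a number in place of a gene symbol, and no row is a total.

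The 30 genes were found by symbol. The members, the gene lists and the motifs were chosen with earlier results of these data known. The genes named are all 30 members and, of the lists around the pathway, those past 1.5-fold with an interval on 1 side of 0 and the gene of each list with the highest count. A few genes that meet the rule are left unreported.

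Normalised counts are reads over median-of-ratios size factors (1.14 and 0.876), as in the DEseq method of the study. Intervals are 95% Clopper-Pearson intervals for the part of a gene's reads that fell in Ramos640, those of ratios between genes come from the log of the ratio, and all cover counting error only. edgeR (4.0.16, R 4.3.3) gave TMM factors and no test was run, since 1 library per cell line gives no dispersion. Transcript length and GC content came from the canonical transcript in GENCODE v44lift37 (GRCh37). Current symbols identified 26511 rows and older symbols 2302, which covered 84.2% of the genes tested. The GC trend was a running median with a window of 501, over protein-coding genes of 100 reads or more. Python 3.11.15, numpy 2.4.6, pandas 2.3.3 and scipy 1.17.1 were used, and the steps were tested on simulated data.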

Additional observations from a re-analysis of the deposited data

How the results depend on the processing

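The alternatives were TMM factors or total counts for the scale, pseudocounts of 0.1 and 10, minimums of 1 and 100 reads, removal of the GC trend, a fold of 2, intervals widened by an assumed variation between cultures, and the median without the 14 members that have a pseudogene or an overlapping gene with reads. Total counts moved the median of all genes tested by -0.080 and TMM factors by -0.00975. With total counts the median of the 30 genes was -0.065, no gene was more than 1.5-fold higher (3 by size factors), and 5 in place of 10 intervals lay above 0. With the GC trend removed the median was -0.061, with 0 genes more than 1.5-fold higher and 1 lower. At a fold of 2 there were 0 higher and 0 lower members, and 0 higher and 4 lower genes around the pathway. Assuming a coefficient of variation of 0.1 between cultures left 3 intervals above and 8 below 0, while 0.2 and 0.4 left 0 above and 0 below. A variation of 0.2 alone widens an interval by 0.8 on the log2 scale, to a 1.74-fold difference. GGPS1, at -0.803, lay just past that width, and its interval included 0 once counting error was added. These variations were assumed and not measured, and each library combined RNA of 3 passages. Whether variation between cultures gave the differences of the 30 genes was not tested. The sign changed for 1 member with TMM factors (SQLE), for 4 with total counts (SQLE, DHCR7, SREBF1 and NPC1) and for 6 without the GC trend (MVK, MVD, DHCR7, SREBF1, INSIG2 and NR1H2). All 6 members listed as past 1.5-fold other than TM7SF2 came within it without the GC trend. Of 67 rechecked counts and medians, 51 stayed within the limit set for them. For a count this limit was 1.5 times. For a median it was the range from the median lower limit to the median upper limit of the counting intervals of the genes. Some of the 51 could not have changed, because the intervals use no pseudocount and all 30 genes pass a minimum of 1 read. No paired analysis was possible because each cell line has 1 library. Without replicates, depth limits NR1H3 and INSIG2 most.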

Other observations

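Fatty acid synthesis genes that SREBPs also control were split in the 2 libraries. Of 13 genes, 11 had at least 10 reads, with a median log2 fold change of -0.090, and ME1 and PNPLA3 had no reads. The desaturases and the elongase of polyunsaturated fatty acids were lower in Ramos640. FADS2 had 3980 and 1445 reads (log2 fold change -1.08, interval -1.17 to -0.99), FADS1 had 3748 and 1881 (-0.61, interval -0.69 to -0.53) and ELOVL5 had 7195 and 3342 (-0.73, interval -0.78 to -0.67). ACSS2, which makes acetyl-CoA from acetate, was higher with 2052 and 3030 reads (0.94, interval 0.86 to 1.02). ACLY, with most reads in the list, had 16956 and 15054 reads (0.21). After the GC trend was removed, FADS2 (-1.27), FADS1 (-0.64) and ACSS2 (0.83) still passed 1.5-fold and ELOVL5 (-0.46) did not.

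Of 14 genes for raft scaffolds and sphingolipid synthesis, 13 had at least 10 reads, with a median of -0.017. PAG1, a raft adaptor that binds the kinase CSK, had 3452 and 1432 reads (-0.89, interval -0.98 to -0.80). SPTLC2, a subunit of serine palmitoyltransferase, had 3489 and 1629 (-0.72, interval -0.80 to -0.63), and SGMS1, a sphingomyelin synthase, had 1479 and 739 (-0.62, interval -0.75 to -0.49, and -0.43 without the GC trend, within 1.5-fold). SGMS2 had 15 reads in Ramos and 1 in Ramos640, with an interval from -8.92 to -0.83. CERS2, the ceramide synthase for very long chains, was higher with 3206 and 4094 reads (0.73, interval 0.67 to 0.80). The raft protein FLOT1, with most reads in the list, had 5911 and 4485 reads (-0.017). These genes too have 1 library per cell line, and no difference has a replicate check.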
